A study of Mus musculus with 5 samples.

Results

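The V segments of the T cell receptor alpha and beta chains were taken as all genes whose mouse symbol starts with Trav or Trbv, with pseudogenes left out. There were 130 such genes, 108 Trav and 22 Trbv, among 49927 gene IDs in the deposited tables. A further 33 pseudogenes, 20 Trav and 13 Trbv, were set aside. Each segment was expressed as a share of its own library's Trav or Trbv reads, so that shares within a chain sum to the whole of that chain.

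RNA of sorted regulatory T cells (Tregs) of C57BL/6 mice was sequenced in 5 groups, each with 1 library. The 10-month adipose libraries were one labelled Med23 KO, from Med23fl/fl;Foxp3Cre mice, and one from Foxp3Cre mice. The 4-month libraries, all from Foxp3Cre mice, came from obese adipose tissue, from adipose tissue with no obesity in its labels (called lean here), and from lymph nodes (LN). The title of the obese library alone carries the letters HFD, read here as high-fat diet. All 5 groups carry Foxp3Cre, in which the Cre recombinase is made by cells that express Foxp3, the defining Treg transcription factor, and would delete a floxed gene in those cells. The number of mice behind a library, the gate used to sort the cells and the read length were all not given in the sources used here.

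A T cell builds each receptor chain by joining 1 V segment to a joining segment, and in the beta chain also to a diversity segment, and splicing the result to a constant gene. The V segment encodes the first and second loops that contact antigen and most of the variable domain, and the junction forms the third loop. All cells of one clone use the same V segments, and mouse visceral adipose Tregs are known for repeated receptor sequences. Spliced receptor RNA of a V segment would therefore follow the number of cells that use it, weighted by the receptor RNA that each holds. How far the V segment reads here come from spliced receptor RNA was not tested. Fewer cells of a clone and less RNA per cell cannot be told apart in these bulk libraries.

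The segments that led a chain in at least 1 library, ties included, are shown by 60 bases around the codon of the conserved cysteine near the 3′ end of the V segment, from the GENCODE M21 transcripts (GRCm38), 5′ to 3′ in the coding strand. Capitals mark that codon, from which the third loop begins.
Trav7-4: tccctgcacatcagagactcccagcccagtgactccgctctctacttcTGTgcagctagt
Trav3-1: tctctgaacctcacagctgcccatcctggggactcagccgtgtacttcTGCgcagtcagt
Trav21-dv12: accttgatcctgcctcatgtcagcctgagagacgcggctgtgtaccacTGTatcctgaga
Trav16n: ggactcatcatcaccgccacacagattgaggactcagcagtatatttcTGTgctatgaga
Trav19: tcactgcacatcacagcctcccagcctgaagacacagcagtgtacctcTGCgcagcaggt
Trbv13-1: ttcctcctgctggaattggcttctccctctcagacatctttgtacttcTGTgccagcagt
Trbv15: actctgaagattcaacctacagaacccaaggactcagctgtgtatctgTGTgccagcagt
Trbv12-2: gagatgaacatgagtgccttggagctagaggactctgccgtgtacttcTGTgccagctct
Trbv16: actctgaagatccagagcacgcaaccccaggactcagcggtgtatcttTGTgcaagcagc

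Reads behind the listed values numbered 4595046 in the library labelled Med23 KO, 9650769 in 10-month Foxp3Cre, 7496496 in obese adipose, 8540594 in lean adipose and 9694474 in LN. The smallest listed value stood for 6 to 10 reads, and anything lower was listed as 0. The targeted gene Med23, a Mediator subunit, had 71 reads (15.5 CPM, counts per 1000000 listed reads) in the library labelled Med23 KO, against 61 reads (6.32 CPM) in 10-month Foxp3Cre, so its level goes against the label. Which exons lie between the loxP sites was also not given in the sources used here. Reads outside those exons check nothing. The 4 Treg markers Foxp3, Il2ra, Ctla4 and Ikzf2 were above 0 in every library and summed to 6585 CPM in the library labelled Med23 KO, 6752 CPM in 10-month Foxp3Cre, 5348 CPM in obese adipose, 5129 CPM in lean adipose and 3937 CPM in LN. Sex-linked genes split the libraries. Ddx3y, a Y-linked gene, had 4211 reads in obese and 4780 in lean adipose and was listed at 0 in the other libraries, where Xist, transcribed from the inactive X chromosome, had 2210 to 4250 reads, against 27 in obese and 0 in lean adipose. Comparisons of 4-month adipose with LN, and of 10-month with 4-month adipose, thus set libraries with and without Y-linked reads side by side. The labels give no sex, and a difference in sex cannot be told apart from tissue or age there. Macrophage markers (8 genes) summed to 87.5 CPM in the library labelled Med23 KO, 625 in 10-month Foxp3Cre, 4314 in obese, 750 in lean and 7.01 in LN, and their part in the results was not tested.

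Of the 108 Trav segments, 10 were above 0 in the library labelled Med23 KO, 42 in 10-month Foxp3Cre, 44 in obese adipose, 25 in lean adipose and 47 in LN. Their reads summed to 546 in the library labelled Med23 KO, 1763 in 10-month Foxp3Cre, 1651 in obese adipose, 2038 in lean adipose and 4532 in LN. The number of segments did not follow the number of reads, as lean adipose had more Trav reads than obese adipose but 25 segments against 44. The library labelled Med23 KO had the fewest reads of the 5 libraries, and 1 listed value was worth at least 1.10% of its Trav reads. With that share as the lower limit in every library, the Trav segments numbered 10 in the library labelled Med23 KO, 32 in 10-month Foxp3Cre, 28 in obese adipose, 22 in lean adipose and 29 in LN. With the same share as limit, the gap between obese and lean adipose was thus 28 against 22, and the library labelled Med23 KO had the lowest number. The limit stands for fewer reads in a library with fewer Trav reads, so detection was not made equal.

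Of the 22 Trbv segments, 13 were above 0 in the library labelled Med23 KO, 18 in 10-month Foxp3Cre, 18 in obese adipose, 13 in lean adipose and 19 in LN. The Trbv reads numbered 1506 in the library labelled Med23 KO, 6282 in 10-month Foxp3Cre, 1558 in obese adipose, 1115 in lean adipose and 12031 in LN. With a limit of 0.807% of Trbv reads in every library, the largest of the 5 listing limits, the numbers were 13 in the library labelled Med23 KO, 16 in 10-month Foxp3Cre, 18 in obese adipose, 13 in lean adipose and 18 in LN. Above 0 in all 5 libraries were 11 segments: Trbv1, Trbv3, Trbv12-2, Trbv13-2, Trbv13-3, Trbv15, Trbv19, Trbv20, Trbv26, Trbv29 and Trbv31. Trbv4, Trbv5 and Trbv21 were listed at 0 in every library, and Trbv30 was above 0 in LN alone, with 105 reads. In obese adipose, 7 Trbv30 reads lay under the listing limit, so its absence from the list there is not absence of reads.

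Trav segments were shared less broadly. Trav3-3, Trav13-1 and Trav14-1 were the 3 of 108 above 0 in all 5 libraries, 14 were above 0 in 4 libraries, and 45 were at 0 throughout. Of the 13 segments found in a single library, 5 were in LN, 5 in obese adipose and 3 in 10-month Foxp3Cre. Neither the library labelled Med23 KO nor lean adipose had a segment of its own.

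Of the 45 Trav segments at 0 throughout, 32 had no window of 50 bases that was absent from every other T cell receptor V transcript. The mouse Trav locus contains a duplicated stretch, and its copies carry the letters d or n in their names. Of the 108 Trav transcripts, 35 in all had no such unique window, and 3 of those 35 (Trav14d-1, Trav14n-2 and Trav6-6) were above 0 in any library, with 50 reads in all. Where under 50% of windows were unique, 22 of 31 segments were above 0, and where 50% or more were unique, 38 of 42 were. The Trbv segments, by contrast, each had at least 98.8% unique windows.

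**Figure D1:**
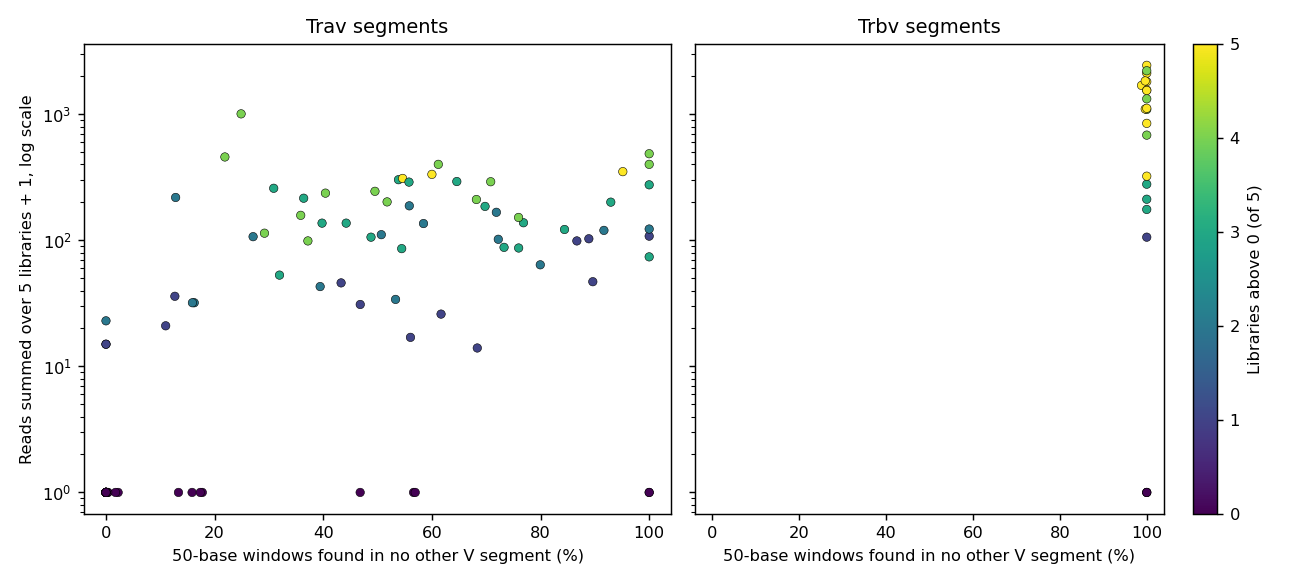
Reads summed over the 5 libraries plus 1 (y axis, log scale) against the share of 50-base windows of each segment's transcript that occur in no other V segment (x axis, %), with Trav on the left and Trbv on the right. Each point is a segment and its colour gives the number of libraries in which it was above 0. The 35 Trav segments at 0% unique lie along the left edge, 32 of them with no listed read, and all 22 Trbv segments lie at 98.8% or more.

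Trav11, whose chain pairs in the semi-invariant receptor of natural killer T cells, shows this limit. It was listed at 0 in all 5 libraries, but it has no unique window of 50 bases, and the 87 bases around its cysteine codon are identical (0 differences) to those of its copy Trav11d, also listed at 0.
Trav11: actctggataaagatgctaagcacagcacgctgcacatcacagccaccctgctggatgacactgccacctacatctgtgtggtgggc
Trav11d: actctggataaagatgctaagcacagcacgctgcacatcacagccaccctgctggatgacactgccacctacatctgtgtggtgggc
Of the other natural killer T markers in the list, Zbtb16, their defining transcription factor, had 33 reads in lean adipose and Klrb1c, a surface receptor, had 18 in LN, and both were at 0 elsewhere. Trav1, used by the receptor of mucosal-associated invariant T cells, has windows that are all unique. It had 0 reads listed in the library labelled Med23 KO, 18 in 10-month Foxp3Cre, 8 in obese adipose, 47 in lean adipose and 0 in LN, where 1 read lay under the listing limit. Lean adipose was highest, at 2.31% of Trav reads.

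Evenness, which is 1 when all segments above 0 have equal shares, was computed with a 95% interval for counting error only, which treats each read as an independent draw. These reads carry no molecular identifiers and cannot be counted as independent molecules, so the interval can be too narrow. For Trbv it was 0.908 (0.897 to 0.920) in the library labelled Med23 KO, 0.816 (0.808 to 0.824) in 10-month Foxp3Cre, 0.940 (0.931 to 0.95) in obese adipose, 0.846 (0.826 to 0.865) in lean adipose and 0.926 (0.923 to 0.930) in LN. The intervals of 10-month Foxp3Cre and lean adipose thus lay below those of the other libraries. The effective number of Trbv segments, the number of equally used segments that gives the same diversity, was 10.3 in the library labelled Med23 KO, 10.6 in 10-month Foxp3Cre, 15.2 in obese adipose, 8.75 in lean adipose and 15.3 in LN. Obese adipose was thus close to LN on this scale, and the other adipose libraries were below both.

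For Trav, evenness was 0.889 (0.865 to 0.914) in the library labelled Med23 KO, 0.928 (0.919 to 0.937) in 10-month Foxp3Cre, 0.928 (0.919 to 0.937) in obese adipose, 0.890 (0.879 to 0.901) in lean adipose and 0.899 (0.892 to 0.906) in LN. In listed reads the intervals of the library labelled Med23 KO, lean adipose and LN overlapped. This depended on the listing limit: with reads under it recovered where possible, the library labelled Med23 KO had 14 Trav segments and an evenness of 0.813, against 0.862 in lean adipose and 0.891 in LN. The effective number of Trav segments differed more, at 7.75 in the library labelled Med23 KO, 32.1 in 10-month Foxp3Cre, 33.5 in obese adipose, 17.6 in lean adipose and 31.9 in LN. The 5 leading Trav segments held 73.4% of Trav reads in the library labelled Med23 KO, 32.4% in 10-month Foxp3Cre, 29.9% in obese adipose, 49.4% in lean adipose and 35.7% in LN. The 5 leading Trbv segments held, of Trbv reads, 66.8% in the library labelled Med23 KO, 67.1% in 10-month Foxp3Cre, 48.6% in obese adipose, 73.6% in lean adipose and 48% in LN. Lean adipose had the highest such share for Trbv and the next to highest for Trav, and also the fewest Trbv reads.

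**Figure D2:**
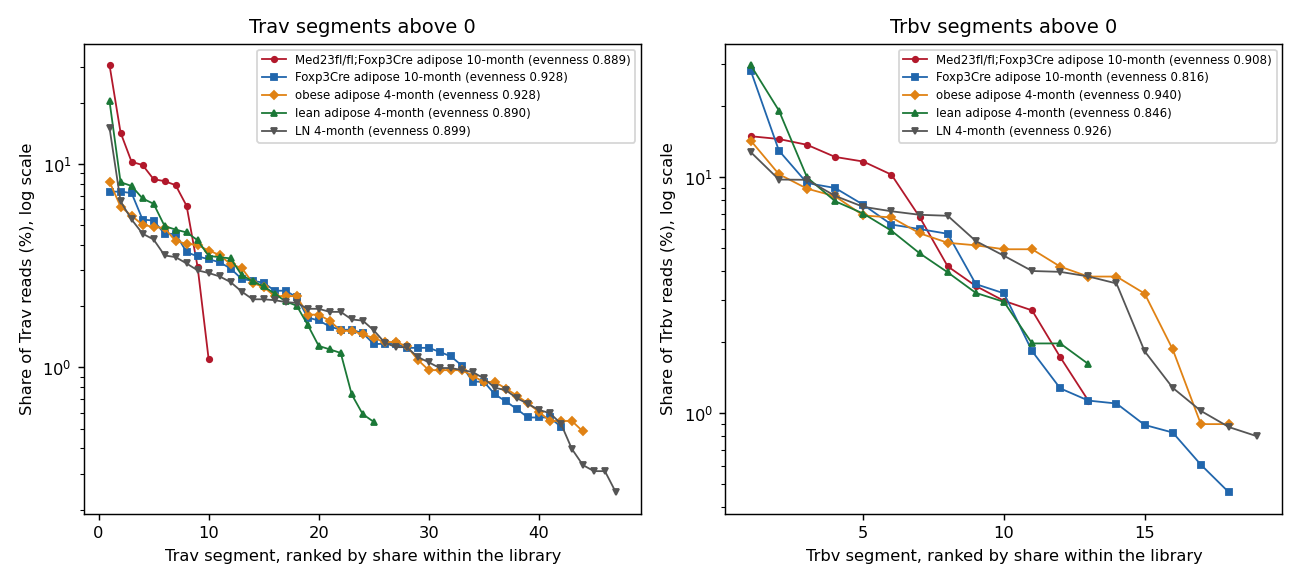
Share of Trav reads (left) and Trbv reads (right) of each segment above 0, as percent on a log scale, against its rank within the library; lines stand for the 5 libraries and the legend gives each evenness. The Trav line of the library labelled Med23 KO ends at rank 10 and that of lean adipose at rank 25, and the Trbv lines of 10-month Foxp3Cre and lean adipose start at 28.1% and 29.7%.

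The leading beta segment was Trbv13-1 in the library labelled Med23 KO, Trbv15 in 10-month Foxp3Cre, Trbv12-2 in obese and in lean adipose, and Trbv16 in LN. Ranks are by read share, and per base of exon length 9 of the 10 leading segments of both chains were the same. In the sentences on single segments, values are shares of the chain's reads, and an interval is the exact 95% Clopper-Pearson interval for counting error. It also treats each read as an independent draw. Trbv15 made up 2.99% of Trbv reads in the library labelled Med23 KO, 28.1% (27.0 to 29.3) in 10-month Foxp3Cre, 5.78% in obese adipose, 7.89% in lean adipose and 3.79% in LN. The 10-month Foxp3Cre library stood alone, with 1768 Trbv15 reads against 45 to 456 in the others.

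Trbv12-2 made up 13.7% of Trbv reads in the library labelled Med23 KO, 6.02% in 10-month Foxp3Cre, 14.2% (12.5 to 16.1) in obese adipose, 29.7% (27.0 to 32.5) in lean adipose and 4.64% in LN. It led in both 4-month adipose libraries and was not among the 5 leading segments in LN. On the scale of library totals it was not higher than in LN, with 38.8 CPM in lean adipose against 57.6 CPM in LN. Trbv13-2 ranked second in lean adipose at 19.1%, against 6.29% to 8.31% in the other 4 libraries.

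Trbv16 led in LN with 12.7% (12.1 to 13.3) of Trbv reads. It had 564 reads (8.98%) in 10-month Foxp3Cre, 4.94% in obese adipose and 3.95% in lean adipose, and no read in the library labelled Med23 KO. Trbv13-1 led in the library labelled Med23 KO with 14.9% (13.1 to 16.8), against 3.52% in 10-month Foxp3Cre, 3.21% in obese adipose and 6.92% in LN, and it had no read in lean adipose. Both segments were thus among the leaders of one library and without a read in another, and for both the missing reads come from the authors' log2 ratio, which tells no read from a value under the listing limit.

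Trbv19 fell into a high and a low set of libraries: 10.2% in the library labelled Med23 KO, 10.3% in obese adipose and 9.72% in LN, but 0.828% in 10-month Foxp3Cre and 1.61% in lean adipose. Trbv3 varied less, with 14.5% in the library labelled Med23 KO and 7.62% to 9.96% in the others. Trbv1 held 11.6% in the library labelled Med23 KO, 12.9% in 10-month Foxp3Cre, and 5.35% to 7.0% at 4 months. Trbv31, which lies beyond the beta constant genes and joins by inversion, held 1.13% in the library labelled Med23 KO, 9.42% in 10-month Foxp3Cre, 4.94% in obese adipose, 3.23% in lean adipose and 6.85% in LN. It was thus lowest in the library labelled Med23 KO and highest in 10-month Foxp3Cre.

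Other beta segments, none of them the first in any library, varied as well. Trbv20 held 12.2% in the library labelled Med23 KO and 3.54% to 5.92% in the others. Trbv2 held 3.45% in the library labelled Med23 KO, 1.83% in 10-month Foxp3Cre, 4.17% in obese adipose and 7.16% in LN, and lean adipose had no read of it. Trbv26 was highest in obese adipose at 6.74%, against 1.73% to 4.00% elsewhere, and so was Trbv12-1 at 3.79%, against 0.892% in 10-month Foxp3Cre, 0.798% in LN and none listed in the remaining pair. Trbv13-3 was highest in LN at 7.47%, against 1.27% to 3.79% in adipose tissue. Trbv17 held 3.96% to 5.26% in the 4-month libraries, 1.13% in 10-month Foxp3Cre and no read in the library labelled Med23 KO.

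**Figure D3:**
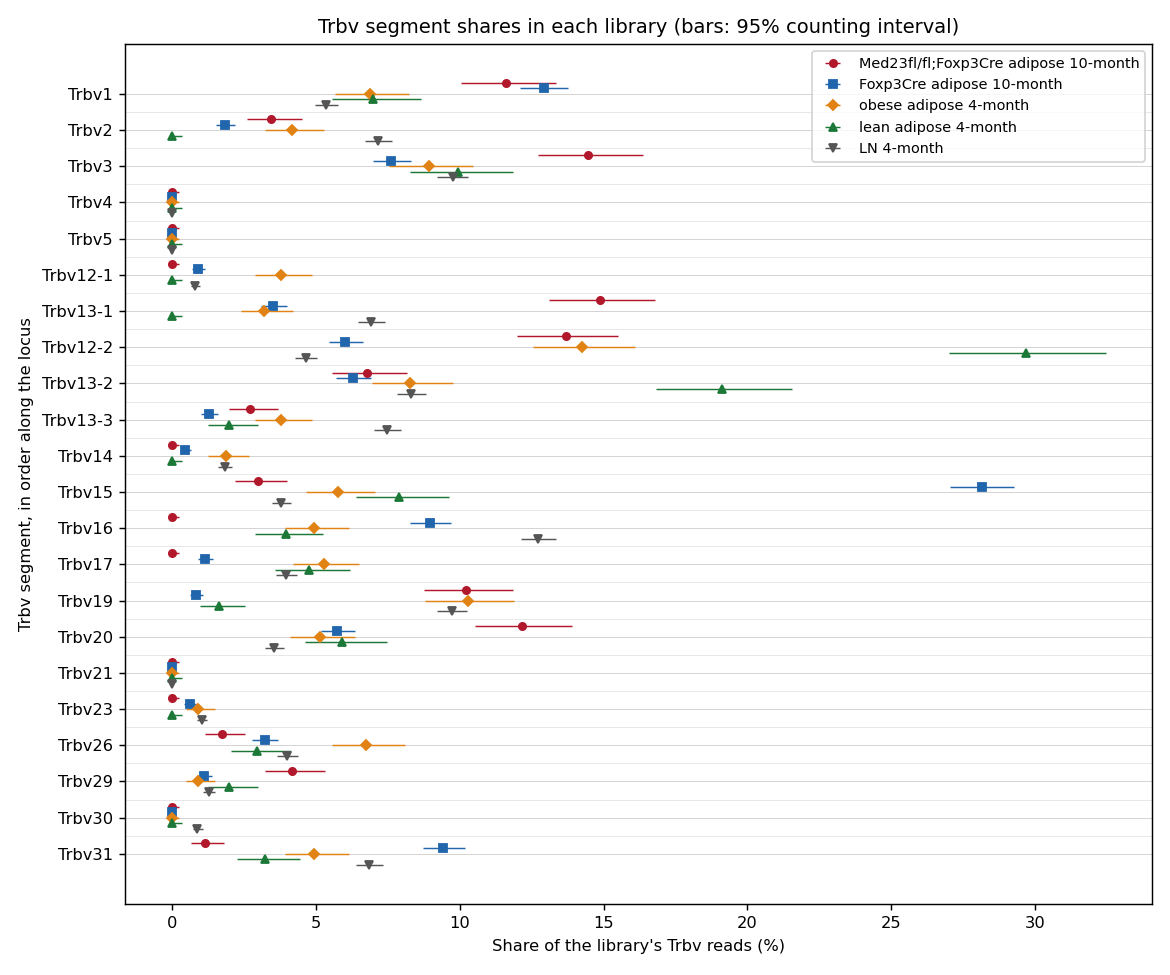
Share of the library's Trbv reads (x axis, %) of each of the 22 Trbv segments (y axis, in the order of GENCODE M21 along the chromosome) in the 5 libraries, with exact 95% counting intervals as bars. Trbv15 of 10-month Foxp3Cre at 28.1% and Trbv12-2 of lean adipose at 29.7% lie to the right of every other point.

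Among alpha segments, Trav7-4 held 30.6% (26.7 to 34.6) of Trav reads in the library labelled Med23 KO, 3.57% in obese adipose, 4.96% in lean adipose and 15% (14 to 16.1) in LN, and had no read in 10-month Foxp3Cre. Its copies have nearly the same sequence: 24.9% of its 50-base windows are unique, and 1 base differs in 90 bases around the cysteine codon of Trav7-4, Trav7d-4 and Trav7n-4, shown in capitals.
Trav7-4: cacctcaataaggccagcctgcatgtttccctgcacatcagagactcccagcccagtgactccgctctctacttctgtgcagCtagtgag
Trav7d-4: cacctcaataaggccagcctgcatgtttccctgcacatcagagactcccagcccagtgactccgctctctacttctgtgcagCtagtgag
Trav7n-4: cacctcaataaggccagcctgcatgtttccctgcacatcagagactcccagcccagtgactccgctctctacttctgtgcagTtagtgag
How reads that match several copies were counted was likewise not given in the sources used here. Summed over these 3 copies, the share was 30.6% in the library labelled Med23 KO, 5.33% (4.33 to 6.49) in 10-month Foxp3Cre, 9.39% in obese adipose, 6.97% in lean adipose and 22.5% in LN. The library labelled Med23 KO and LN remained the highest, and 10-month Foxp3Cre, where Trav7d-4 had 94 reads, was no longer at 0. As a family of related segments, Trav7 led in 4 of the 5 libraries, with 40.5% in the library labelled Med23 KO, 16.8% in 10-month Foxp3Cre, 17.8% in obese adipose and 25.3% in LN.

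Trav19, a segment with no copy (100% unique windows), led in lean adipose with 414 reads, 20.3% (18.6 to 22.1) of its Trav reads. It had 26 reads (1.47%) in 10-month Foxp3Cre, 22 reads (1.33%) in obese adipose and 24 reads (0.530%) in LN, and was listed at 0 in the library labelled Med23 KO. Lean adipose was thus the single library in which Trav19 passed 2% of the chain. Trav12-2 (8.15%), Trav15-1-dv6-1 (7.80%), Trav13-1 (6.77%) and Trav6-3 (6.38%) followed it there. In LN those 4 segments held 0.794%, 0% with 6 reads under the listing limit, 0.949% and 1.94%, so each was lower in share than in lean adipose.

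Trav16n led in obese adipose with 8.18% (6.90 to 9.60), against 0.851% in 10-month Foxp3Cre, 1.23% in lean adipose and 1.52% in LN. Trav7-5 ranked second in obese adipose with 102 reads (6.18%) and was listed at 0 in the other 4 libraries. In 10-month Foxp3Cre no single segment led: Trav3-1 and Trav21-dv12 had 129 reads each, 7.32% (6.14 to 8.63), and Trav7d-3 had 127. Each of these 3 had no read in the library labelled Med23 KO. That library was led, after Trav7-4, by Trav14-1 (14.3%), Trav10n (10.3%), Trav7-1 (9.89%) and Trav9-4 (8.42%). Trav14d-3-dv8 held 6.23% in the library labelled Med23 KO, 4.54% in 10-month Foxp3Cre, 4.85% in obese adipose and 4.55% in LN, and had no read in lean adipose. Trav5-4 was 4.54% in 10-month Foxp3Cre, 0.969% in obese adipose and 4.26% in LN, and lean adipose and the library labelled Med23 KO had no read of it. Trav17 was second in LN with 6.55% and was 3.53% in lean adipose and 1.25% or less in the others.

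The 3 Trav segments found in every library had no fixed share. Trav14-1 held 14.3% in the library labelled Med23 KO, 3.06% in 10-month Foxp3Cre, 4.06% in obese adipose, 2.65% in lean adipose and 2.14% in LN. Trav13-1 was between 3.11% and 3.29% in the library labelled Med23 KO, 10-month Foxp3Cre and obese adipose, with 6.77% in lean adipose and 0.949% in LN. Trav3-3 was 7.88% in the library labelled Med23 KO, 5.03% in obese adipose, and 2.16% to 3.43% in the others. For Trav13-1 the interval in LN (0.687 to 1.28) lay below those of the other libraries. For Trav3-3 the intervals of 10-month Foxp3Cre (1.58 to 3.01) and LN (1.76 to 2.63) overlapped. Its interval in lean adipose (2.69 to 4.32) overlapped those of 10-month Foxp3Cre and obese adipose. The Trav3-3 interval of obese adipose also overlapped that of the library labelled Med23 KO (5.76 to 10.5). For Trav14-1 the intervals of 10-month Foxp3Cre (2.31 to 3.98), lean adipose (1.997 to 3.44) and LN (1.74 to 2.60) overlapped. The Trav14-1 interval of obese adipose overlapped those of 10-month Foxp3Cre and lean adipose.

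**Figure D4:**
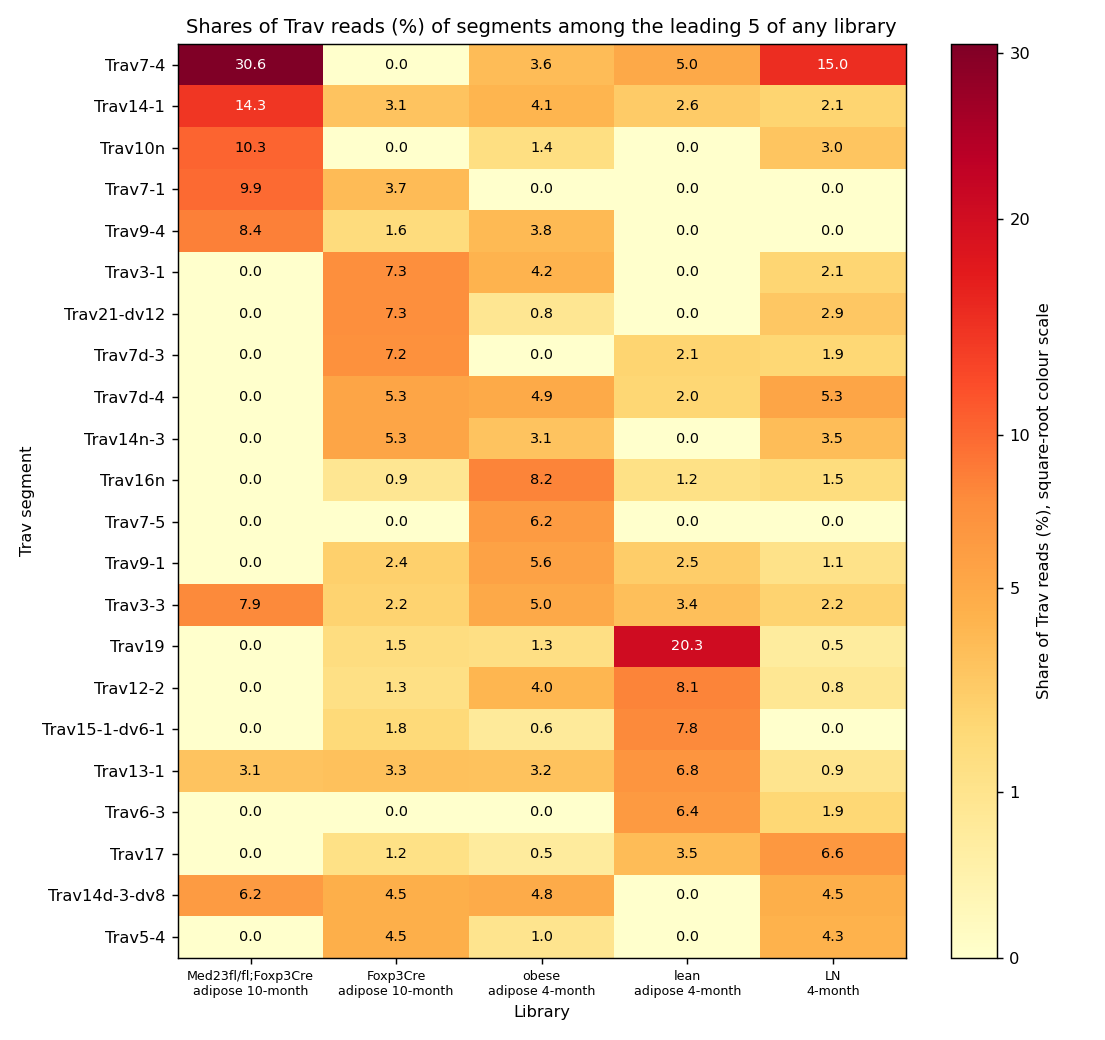
Share of Trav reads (%, number in each cell and square-root colour scale) of the 22 Trav segments that were among the 5 leading ones in any library (rows), in each of the 5 libraries (columns). The leading cells, 30.6% for Trav7-4 in the library labelled Med23 KO and 20.3% for Trav19 in lean adipose, stand in rows that are 15% or less elsewhere.

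Position along the locus was read from the gene order in GENCODE M21. The 36 of 108 Trav segments nearest the joining segments held 65.4% of Trav reads in the library labelled Med23 KO, 43.9% in 10-month Foxp3Cre, 61.0% in obese adipose, 83.6% in lean adipose and 52.7% in LN. Lean adipose was the most concentrated at this end, with 18 of its 25 segments there. Segments named with a d held, of Trav reads, 14.5% in the library labelled Med23 KO, 29.2% in 10-month Foxp3Cre, 14.8% in obese adipose, 5.74% in lean adipose and 18.7% in LN. Those named with an n held 10.3% in the library labelled Med23 KO, 9.93% in 10-month Foxp3Cre, 16.2% in obese adipose, 1.96% in lean adipose and 14.9% in LN. Both kinds of copy were thus lowest in lean adipose. All of these copies lie outside the 36 segments nearest the joining segments, as do most segments with no unique window. The shares by position and by copy are therefore not separate observations.

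Libraries also shared usage to different degrees. The overlap used here is the sum over segments of the smaller of the 2 shares, so 100% is identical usage. For Trbv it was 51.7% between the library labelled Med23 KO and 10-month Foxp3Cre, 54.4% between lean adipose and LN, 77.7% between obese adipose and LN, 68.6% between obese and lean adipose, and 55.0% between 10-month and 4-month lean adipose. For Trav it was 19.7% between the library labelled Med23 KO and 10-month Foxp3Cre, 30.6% between lean adipose and LN, 47.5% between obese adipose and LN, 36.8% between obese and lean adipose, and 28.4% between 10-month and 4-month lean adipose. In both chains obese adipose was closer to LN than lean adipose was. The 10-month Foxp3Cre library, which like LN had no Ddx3y read listed, overlapped LN by 61.8% for Trbv and 52.4% for Trav. With 1 library per group, the overlap between replicate mice of one group is not known, so these values have no scale of chance beside them.

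The chain totals were lower in 4-month adipose tissue than in LN, the beta chain more than the alpha chain. Trbv reads made up 131 CPM in lean adipose against 1241 CPM in LN, 9.51-fold lower (8.94 to 10.1), and 208 CPM in obese adipose, 5.97-fold lower than in LN (5.66 to 6.30). Trav reads made up 239 CPM in lean and 220 CPM in obese adipose against 467 CPM in LN, 1.96-fold lower (1.86 to 2.07) and 2.12-fold lower (2.01 to 2.25). At 10 months the chains did not keep this order, with Trbv at 328 CPM in the library labelled Med23 KO and 651 CPM in 10-month Foxp3Cre, and Trav at 119 CPM in the library labelled Med23 KO and 183 CPM in 10-month Foxp3Cre. Both adipose comparisons share the LN library. The CD3 genes Cd3d, Cd3e and Cd3g, which encode the signalling partners of the receptor, summed to 1521 CPM in lean and 1934 CPM in obese adipose against 4640 CPM in LN. The beta constant genes Trbc1 and Trbc2 summed to 1088 and 1256 CPM against 4763 CPM in LN, and the alpha constant gene Trac had 422 and 619 CPM against 1454 CPM. Cd247, the CD3 zeta chain, had 18.3 CPM in lean and 126 CPM in obese adipose against 153 CPM in LN, and Cd4 had 101 and 198 CPM against 96.5 CPM. The 8 genes of this list summed to 3712 CPM in the library labelled Med23 KO, 4730 in 10-month Foxp3Cre, 4133 in obese adipose, 3150 in lean adipose and 11105 in LN. The receptor genes as a sum were thus lower in every adipose library than in LN, while the sum of the Treg markers was not. The Treg markers did not move as one in 4-month adipose tissue. Ctla4 had 706 CPM in lean and 886 CPM in obese adipose against 1262 CPM in LN. Foxp3 had 216 and 180 CPM against 52.5 CPM, and Ikzf2 2686 and 3975 CPM against 2331 CPM. Il2ra had 1520 and 307 CPM against 291 CPM.

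At least 2-fold lower on the log2(value + 1) scale in lean adipose than in LN were 18 of 19 measured Trbv segments, and 0 were higher, where a segment was measured if it had a listed value of at least 1 in either library. Among all 13541 measured genes, 32.1% were lower and 37.6% higher by this rule. A segment or gene listed at 0 in one library and at 1 or more in the other is always called by it. This holds in the comparisons that follow as well. Such a call gives no size of change and can come from the listing limit. Trbv12-2 was the 1 measured segment that was not called lower. Among segments above 0 in both libraries, the largest ratios were those of Trbv19 (2.11 CPM in lean adipose, 121 CPM in LN, 57.3-fold lower) and Trbv13-3 (36-fold lower). Trbv2 and Trbv13-1 had no read in lean adipose, against 861 and 832 reads in LN. Of 52 measured Trav segments, 32 were lower, 27 of them listed at 0 in lean adipose, and 10 were higher. The 10 higher ones, 5 of them listed at 0 in LN, included Trav19, with 48.5 CPM in lean adipose against 2.48 CPM in LN. With a mean value of at least 5, 7 of 50 measured segments of both chains were higher and 35 lower, against 32.6% and 28.9% of all genes. With a pseudocount of 5, 7 of 71 were higher and 39 lower, against 26.7% and 23.5%. As shares of the chain total in place of levels, 17 of both chains' segments were higher and 40 lower, beside 10 and 50 on levels. A listed 0 stays 0 on shares and is called again, and 33 segments were at 0 in lean adipose alone and 5 in LN alone. No share of all genes exists at this setting.

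In obese adipose against LN, 18 of 19 measured Trbv segments were lower and 0 higher, and 28 of 58 Trav segments were lower and 13 higher, against 23.7% lower and 41.8% higher among all 14713 measured genes. The exception among Trbv was Trbv12-1, with 7.87 CPM in obese adipose against 9.90 CPM in LN. The median log2 ratio was -2.61 for Trbv and -0.87 for Trav, against 0.44 for all genes. In lean adipose against LN the medians were -3.51 for Trbv, -1.93 for Trav and 0.14 for all genes. As shares of the chain total, 24 segments were higher and 25 lower in obese adipose than in LN, beside 13 and 46 on levels. On shares too a listed 0 stays 0, and 15 segments were at 0 in obese adipose alone and 11 in LN alone. Of the 13 higher on levels, 11 were listed at 0 in LN. With a mean value of at least 5, 2 of 45 measured segments were higher and 34 lower, against 29.0% and 25.3% of all genes. With a pseudocount of 5, 2 of 77 were higher and 36 lower, against 22.9% and 16.7%. On levels, both comparisons thus placed the beta segments lower than the alpha segments and both chains lower than the typical gene.

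Obese against lean adipose, joined by way of the shared LN library, gave 9 of 18 measured Trbv segments at least 2-fold higher and 0 lower, and 25 of 48 Trav segments higher and 11 lower. Among all 14637 measured genes 32.9% were higher and 19.1% lower. Of the higher segments, 5 of the 9 Trbv and 23 of the 25 Trav were listed at 0 in lean adipose. With a mean value of both libraries of at least 5, the direction turned over both chains, to 5 higher and 7 lower in place of 34 and 11. These were of 27 measured segments, and all genes had 19.4% higher and 17.6% lower at that setting. With a pseudocount of 5, 12 of 66 segments were higher and 6 lower, against 15.8% and 11.4% of all genes. Trbv19 had 21.3 CPM in obese against 2.11 CPM in lean adipose, 10.1-fold higher. Trav19 went the other way, with 2.93 CPM in obese against 48.5 CPM in lean adipose. The chain totals differed little for Trav, at 220 CPM in obese and 239 CPM in lean adipose, and were 1.59-fold higher (1.47 to 1.72) for Trbv in obese adipose.

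Between 10-month and 4-month Foxp3Cre adipose, whose tables were scaled separately and are therefore compared in CPM, 15 of 18 measured Trbv segments were at least 2-fold higher at 10 months and 0 lower. Among all 13712 measured genes 28.8% were higher and 32% lower. Trbv15 had 183 CPM at 10 months against 10.3 CPM at 4 months, 17.8-fold higher, and Trbv31 had 61.3 CPM against 4.22 CPM, 14.5-fold higher. Trbv12-2 was level, with 39.2 CPM at 10 months and 38.8 CPM at 4 months. The Trbv total was 4.99-fold higher (4.68 to 5.32) at 10 months, while Trbc1 and Trbc2 summed to 1610 CPM at 10 months and 1088 CPM at 4 months. Of 48 measured Trav segments, 24 were higher and 17 lower, and 23 of the 24 higher ones were listed at 0 at 4 months, as were 5 of the 15 higher Trbv segments. With a mean value of at least 5, 13 of 31 measured segments of both chains were higher and 11 lower in place of 39 and 17. All genes had 20.1% higher and 29.1% lower at that setting. With a pseudocount of 5, 18 of 66 segments were higher and 9 lower, against 16.6% and 22.4% of all genes. The Trav total was 1.31-fold lower (1.22 to 1.39) at 10 months. The B cell list (6 genes) summed to 4770 CPM at 10 months and 311 CPM at 4 months, and to 1203 CPM in the library labelled Med23 KO, 567 in obese adipose and 796 in LN. In 10-month Foxp3Cre, Igkc had 3739 CPM and Ighm 1023 CPM, while Ms4a1 was at 0, and the part of these genes in the result was not tested.

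Set against the same 10-month Foxp3Cre library as in the age comparison, the library labelled Med23 KO had 10 of 18 measured Trbv segments at least 2-fold lower and 1 higher. Of 45 measured Trav segments, 35 were lower and 6 higher, and all 35 lower ones were listed at 0 in the library labelled Med23 KO, as were 5 of the 10 lower Trbv segments. Each of these calls on a listed 0 follows from the rule itself. Among all 13549 measured genes 34.9% were lower and 28.6% higher. With a mean value of both libraries of at least 5, 6 of 27 measured segments of both chains were higher and 11 lower. That was in place of 7 and 45, and all genes had 24.7% higher and 28.6% lower at that setting. With a pseudocount of 5, 3 of 63 segments were higher and 19 lower, against 18.6% and 23.2% of all genes. Trbv15 had 9.79 CPM in the library labelled Med23 KO against 183 CPM in 10-month Foxp3Cre, 18.7-fold lower, and Trbv31 had 3.70 CPM against 61.3 CPM, 16.6-fold lower. Trbv19 was the 1 segment that was higher, with 33.5 CPM against 5.39 CPM. The Trbv total was 1.99-fold lower (1.88 to 2.10) and the Trav total 1.54-fold lower (1.40 to 1.70), and the library labelled Med23 KO had under 50% of the listed reads of the other. As shares of the chain total, 14 segments of both chains were higher and 42 lower, beside 7 and 45 on levels. A listed 0 stays 0 on shares and is called again. Listed at 0 in the library labelled Med23 KO alone were 40 segments, and 3 were at 0 in 10-month Foxp3Cre alone. The 42 are thus mostly the same calls on a listed 0, and no share of all genes exists at this setting.

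V segment reads did not keep a fixed ratio to the constant gene of their chain. There were 64.4 Trav reads per 100 Trac reads in the library labelled Med23 KO, 22.6 in 10-month Foxp3Cre, 35.6 in obese adipose, 56.6 in lean adipose and 32.2 in LN. Trac itself was lowest in the library labelled Med23 KO, at 848 reads (185 CPM), against 808 CPM in 10-month Foxp3Cre. Trav CPM was also lowest in the library labelled Med23 KO, so its high ratio does not stand for more Trav reads. Trbc1 and Trbc2 summed to 1852 CPM there and 1610 CPM in 10-month Foxp3Cre. For Trbv reads per 100 reads of Trbc1 and Trbc2 the values were 17.7 in the library labelled Med23 KO, 40.4 in 10-month Foxp3Cre, 16.5 in obese adipose, 12 in lean adipose and 26.1 in LN. The 10-month Foxp3Cre library thus had the lowest alpha and the highest beta ratio.

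**Figure D5:**
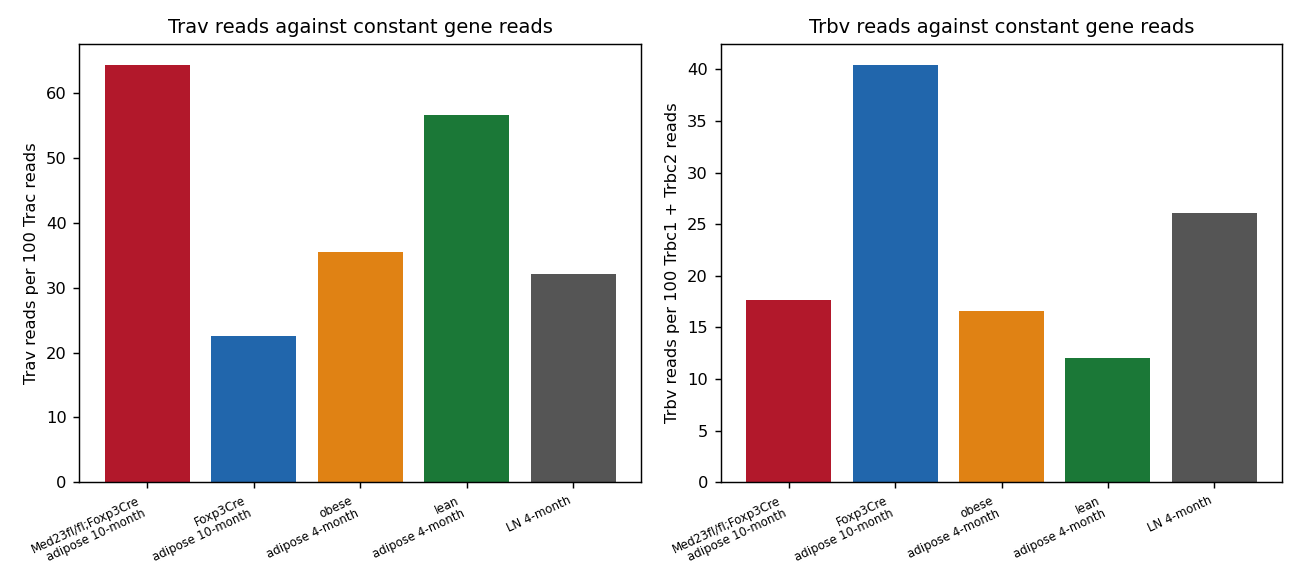
Trav reads per 100 Trac reads (left) and Trbv reads per 100 reads of Trbc1 and Trbc2 (right), as bars for the 5 libraries. The alpha ratio is highest in the library labelled Med23 KO (64.4) and lowest in 10-month Foxp3Cre (22.6), where the beta ratio is highest (40.4). Trac had 185 CPM in the library labelled Med23 KO and 808 CPM in 10-month Foxp3Cre.

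The B cell list, given above in CPM, had 2653 reads in lean adipose and 46035 in 10-month Foxp3Cre. Genes of receptor rearrangement and of other T cells had fewer reads. Rag1, Rag2 and Dntt, which act in receptor rearrangement, were listed at 0 in all 5 libraries, and Ptcra, the surrogate alpha chain of thymocytes, had 12 reads in 10-month Foxp3Cre and 0 elsewhere. Of 13 gamma delta T cell genes found, 1 to 4 were above 0 in a library, and they summed to 93.1 CPM in the library labelled Med23 KO, 22.4 in 10-month Foxp3Cre, 10 in obese adipose, 30.7 in lean adipose and 13.2 in LN. The defining gene Trdc, the delta constant gene, was at 0 in 4 libraries and had 31 reads in 10-month Foxp3Cre. Cd8b1, a chain of the CD8 coreceptor, had 276 reads in the library labelled Med23 KO, against 22 in 10-month Foxp3Cre, while Cd8a, its partner, was listed at 0 and had 68 reads. In the other libraries Cd8b1 had 108 reads in obese adipose, 0 in lean adipose and 160 in LN. Whether cells other than Tregs contributed to the V segment shares was not tested.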

How the data were processed

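Libraries were made with an Illumina TruSeq kit from sorted Tregs, per the labels' protocols, with 1 library in each of 5 groups. Per the submitters' processing notes, TopHat2 2.0.9, Bowtie2 2.0.6 and mm8 were used. The read counter, strand setting, annotation, scaling and rule for reads matching several V segments were all not given in the sources used here. Since the reference used for names and transcripts is GENCODE M21 on GRCm38, no coordinates are printed; 49326 of 49927 IDs matched a symbol.

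The authors deposited 3 tables, each with 2 libraries as scaled read counts (taken as signal), with q-values, p-values and log2 fold changes. All nonzero scaled counts were whole multiples, within 0.01 read, of 1 step per library, which gave back the reads. The authors listed values under 1 as 0. Where one library was at 0 and the other was not, the authors' log2 fold change gave the reads under that limit for some segments, with 0.5 in place of no read. Of 35 such Trav zeros in the library labelled Med23 KO, 22 were not resolved, and of 27 in lean adipose 8 were not. No deposited p-value is printed, because it compares 2 libraries and not conditions.

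Shares, evenness (Shannon entropy over the log of the number of segments above 0), effective numbers and overlaps were computed from the reads. Levels were compared by a 2-fold size rule on log2(value + 1); 10-month against 4-month adipose used CPM of listed reads. The design foresaw counts or normalized values, and as no count model suits these values and each group has 1 library, no test between conditions was made. The members, marker lists and named segments were chosen with earlier results of these data known. Named were the 5 leading segments of each library and chain, the 3 largest gains and losses in share of each comparison, Trav11, Trav1, and the constant, joining and CD3 genes, not all of them singly in the text. Xist and Ddx3y were added after their values were seen. The lists were the receptor constant genes and CD3, Treg, gamma delta T, invariant NKT, CD8, macrophage, B cell and recombination genes. Calculations used pandas 2.3.3, numpy 2.4.6, scipy 1.17.1 and matplotlib 3.10.9 in Python 3.11.15, and the 2-fold rule was tested on simulated data.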

Additional observations from a re-analysis of the deposited data

How the results depend on the processing

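With 1 library per group no replicate could be left out, and no value here carries an error between mice. No paired analysis was possible because each group has 1 library. Zeros stand for values under 6 to 10 reads, so the number of segments listed above 0 is a lower limit, and how near-identical Trav copies shared reads was not tested. The leading segment was unchanged in 10 of 10 library and chain pairs at a common lower limit, with pseudogenes kept and with reads under the limit recovered, in 2 of 2 with LN taken from the other table, and in 9 of 10 per base of exon length, where Trav21-dv12 replaced Trav3-1 in 10-month Foxp3Cre. With windows of 36 or 100 bases in place of 50, 36 or 34 Trav segments had no unique window, 3 of them above 0. Recovered reads, the exon length scale and these windows were chosen after seeing the data. Equal totals of listed reads and LN from the other table moved no result beyond its counting error or by 1.5 times.

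At a common lower limit, Trav numbers were 28 in obese adipose and 29 in LN, Trav evenness 0.948 in 10-month Foxp3Cre, 0.958 in obese adipose, 0.907 in lean adipose and 0.930 in LN, the leading Trav share 17.1% in LN, and Trbv evenness 0.836 in 10-month Foxp3Cre and 0.935 in LN. With pseudogenes kept, the leading Trav share was 18.4% in lean adipose, and Trbv evenness 0.880 for the library labelled Med23 KO and 0.806 for 10-month Foxp3Cre. With recovered reads, Trav evenness was 0.813 in the library labelled Med23 KO, 0.90 in obese adipose, 0.862 in lean adipose and 0.891 in LN, and Trbv evenness 0.929 in obese adipose. Per base, the leading Trav share was 18.3% in lean adipose and 13.2% in LN, the leading Trbv share 29.4% in 10-month Foxp3Cre, and Trbv evenness 0.933 in LN.

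Summed by family, Trav numbers were 17 in 10-month Foxp3Cre, obese adipose and LN and 12 in lean adipose. Trav evenness was 0.854 in the library labelled Med23 KO, 0.891 in 10-month Foxp3Cre, 0.869 in obese adipose, 0.910 in lean adipose and 0.880 in LN, and the leading Trav share 40.5% in the library labelled Med23 KO, 16.8% in 10-month Foxp3Cre, 17.8% in obese adipose and 25.3% in LN. Trbv evenness was 0.880 in the library labelled Med23 KO, 0.913 in obese adipose and 0.886 in LN, with leading shares of 24.4% in the library labelled Med23 KO, 18.0% in obese adipose and 22.7% in LN. Trav overlaps were 59.2% (labelled Med23 KO and 10-month Foxp3Cre), 43.7% (lean and LN), 71.1% (obese and LN), 50.02% (obese and lean) and 44.1% (10-month and 4-month), and Trbv overlaps 65.9% (lean and LN), 77.4% (obese and lean) and 59.4% (10-month and 4-month).

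Counts of called segments moved as follows, and the shares of all genes at the pseudocount and mean settings stand beside these comparisons above. With a pseudocount of 5, 3 were higher and 19 lower in the library labelled Med23 KO than in 10-month Foxp3Cre, 2 higher in obese adipose than in LN, 12 higher and 6 lower in obese than in lean adipose, and 18 higher and 9 lower at 10 than at 4 months. With a mean value of both libraries of at least 5, 11 were lower in the library labelled Med23 KO, 2 higher in obese adipose than in LN, 5 higher and 7 lower in obese than in lean adipose, and 13 higher and 11 lower at 10 months. On shares of the chain, 14 were higher in the library labelled Med23 KO, 17 higher in lean adipose than in LN, and 24 higher and 25 lower in obese adipose than in LN. Thus the excess of higher over lower segments in obese against lean adipose turned to 5 against 7, of 27 measured, at a mean of at least 5. The cause of these moves was not tested.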

Other observations

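Reads of the alpha joining segments (Traj) numbered 952 in the library labelled Med23 KO, 598 in 10-month Foxp3Cre, 1372 in obese adipose, 2372 in lean adipose and 773 in LN. Per 100 Trac reads this was 112 in the library labelled Med23 KO, 7.67 in 10-month Foxp3Cre, 29.5 in obese adipose, 65.9 in lean adipose and 5.48 in LN, so the library labelled Med23 KO and lean adipose were highest, as they were for Trav reads per 100 Trac reads. Both ratios rest on Trac, which was lowest in the library labelled Med23 KO, at 185 CPM, and next in lean adipose, at 422 CPM. Traj18, the joining segment of the natural killer T receptor, had, in reads, 168 in the library labelled Med23 KO, 76 in 10-month Foxp3Cre, 283 in obese adipose, 478 in lean adipose and 79 in LN. Other joining segments, Traj19 and Traj27, had 160 and 164 reads in the library labelled Med23 KO and 297 and 423 in lean adipose.

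Among the pseudogenes left out, Trav8-2 had 214 reads in lean adipose, 16 in obese adipose and 0 elsewhere, and Trbv24 had 15 reads in the library labelled Med23 KO, 22 in 10-month Foxp3Cre, 65 in obese adipose, 39 in lean adipose and 193 in LN. Among gamma and delta chain genes, Tcrg-C2 had 331 reads in the library labelled Med23 KO and was listed at 0 in 10-month Foxp3Cre, where Tcrg-C1 had 121 reads against 26 in the library labelled Med23 KO. Trdv1, a delta V segment inside the alpha locus, had 262 reads in lean adipose and 0 to 30 in the other libraries.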
